A study of Mus musculus with 15 samples.

Results

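The genes described here are 37 cell cycle and DNA replication genes, found on the array by the gene name in the scanner files, with old symbols updated through the transcript accession of the probe. They were 19 G1/S replication genes, which act at entry into and during DNA synthesis, and 18 G2/M genes, which act from the end of DNA synthesis to cell division. All 37 were among the 21301 genes tested, on 59 probes. Cdk1 carries the older name Cdc2a on the array and Cdt1 the name Ris2. No member was saturated on any of the 15 arrays. All members were well above background on every array, except Cdc6 and E2f1 (6 of 7 arrays of inflamed tissue) and Ccne2 (5 of 7 arrays of inflamed and 7 of 8 of polypoid tissue).

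The samples came from 8 female Swiss Webster mice, an outbred strain. At 7 weeks of age every mouse, controls included, was injected with the colon carcinogen azoxymethane (AOM) at 7.4 mg/kg, and from 9 weeks it drank 4% dextran sulfate sodium (DSS), which injures the colon lining, in 3 cycles of 7 days followed by 21 days of water. From the carcinogen injection onward the mice were given 5-ASA at 75 mg/kg, an anti-inflammatory drug used in ulcerative colitis, or its vehicle, and colons were taken at 18 weeks. By the ages stated, taken as whole weeks, that age falls at the end of the DSS days of the last cycle, before its water days. The study's design text gives vehicle for the comparator mice and the sample labels give no treatment; the 2 were taken to be the same mice, called untreated here. Inflamed or polypoid tissue was cut from frozen sections by laser capture, and its RNA was amplified in 2 rounds and hybridised against reference RNA pooled for general use in mouse, which carried the second dye. Each of the 4 groups, untreated inflamed, 5-ASA inflamed, untreated polypoid and 5-ASA polypoid, held 2 mice, and each mouse gave 1 tissue. No mouse without AOM and DSS was analysed here, so inflamed tissue was the comparator for polypoid tissue throughout. Of the 8 mice, 5-ASA inflamed mouse 2 was measured on 1 array and the other 7 on a dye-swapped pair of arrays each.

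Each value below is log2(sample/reference) for 1 mouse, and a difference is on the same log2 scale. For the members, the 2 arrays of a mouse differed by a median of 0.06 (90th percentile 0.16) once each probe's mean dye effect was removed. The 2 mice of a group differed by a median of 0.38. A session here means 1 scan date in the array headers. The 2 arrays of a mouse were scanned in the same session and the 2 mice of a group in different sessions. The larger figure therefore includes any difference between scan sessions. The array background medians were 41 to 63 units and the sample medians 148.6 to 257.2 units. Between 57.4% and 90.9% of probes were well above background, the lowest share being that of the lone array of 5-ASA inflamed mouse 2. Epithelial markers were well above background on every array (10 of 10), and so were 7 of 7 fibroblast and 6 of 6 macrophage markers. In captured tissue of mixed cells, more cells in cycle and more RNA per cycling cell cannot be told apart.

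A cell in G1 loads the MCM helicase, a ring of the subunits Mcm2 to Mcm7, onto replication origins with the help of Cdc6 and Cdt1. Cyclin E with its kinase then starts replication, for which ribonucleotide reductase, thymidylate synthase and thymidine kinase supply nucleotides. The genes of this phase are classic targets of E2F transcription factors. Later, cyclins A and B with Cdk1, the Aurora and Polo kinases, the spindle checkpoint proteins and the mitotic kinesins carry the cell through division. Their genes are known for CCAAT boxes and the cell cycle genes homology region (CHR) in their promoters, read by NF-Y and by the DREAM and MuvB complexes. In the colon, cycling cells normally sit at the base of the crypts, and lymphocytes and stromal cells also divide in inflamed tissue.

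Promoters of the members were searched for the sequence words of these factors. Promoter windows of 250 bases before to 50 bases after the transcription start (RefSeq, GRCm38.p6) were at hand for 16 of the 19 G1/S members (17 promoters) and 13 of the 18 G2/M members (13 promoters); Mcm4, Gmnn, Ccne2, Ccna2, Cdc25c, Aurkb, Kif20a and Foxm1 were not matched. Exact words were searched on both strands: TTTGGCGC, TTTCGCGC, TTTCCCGC and TTTGCCGC for E2F, TTTGAA and TTCGAA for the CHR, and CCAAT for the CCAAT box. An E2F word stood in 7 of 17 G1/S promoters (41.2%), 1 of 13 G2/M promoters (7.7%) and 2.3% of all 32851 promoters. A CHR word stood in 2 of 17 (11.8%), 10 of 13 (76.9%) and 19.2%. CCAAT stood in 10 of 17 (58.8%), 11 of 13 (84.6%) and 37.4%. All 10 G2/M promoters with a CHR word also held CCAAT, against 7.5% of all promoters with both. These are matches of letters in a window, with no measurement of binding.

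The stretches that hold the words upstream of the start are shown for 4 G1/S members, 5′ to 3′ on the gene's strand. Each has 12 bases on either side where the upstream window allows. The members were picked by hand from those with an E2F word upstream. Not shown are Mcm7, with an E2F word and a CHR word upstream, and Mcm2, with a CHR word and no E2F word. Capitals mark the words. Their positions are chr1:128359706-128359827 on the minus strand for Mcm6, chr9:109875436-109875531 on the plus strand for Cdc25a, chr8:75109344-75109503 on the plus strand for Mcm5 and chr11:98908001-98908032 on the plus strand for Cdc6. In Mcm6 and Mcm5 an E2F word on each strand overlaps the other, which gives the longer run of capitals.
Mcm6: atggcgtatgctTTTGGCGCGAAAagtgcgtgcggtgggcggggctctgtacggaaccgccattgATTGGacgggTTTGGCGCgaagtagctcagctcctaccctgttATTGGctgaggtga
Cdc25a: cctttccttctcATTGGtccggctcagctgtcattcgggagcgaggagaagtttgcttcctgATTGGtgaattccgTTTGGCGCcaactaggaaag
Mcm5: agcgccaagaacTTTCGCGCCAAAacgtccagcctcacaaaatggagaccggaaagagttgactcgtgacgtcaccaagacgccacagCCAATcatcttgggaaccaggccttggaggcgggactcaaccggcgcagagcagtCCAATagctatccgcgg
Cdc6: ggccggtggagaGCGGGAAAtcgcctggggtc

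For comparison, 5 G2/M promoters show CCAAT boxes (ATTGG on the other strand) beside the CHR words. These 5 were likewise picked by hand, from those with a CHR word upstream. Cdk1 is the G2/M member that holds an E2F word as well. Their positions are chr10:69352913-69353132 on the minus strand for Cdk1, chr11:99024195-99024428 on the minus strand for Top2a, chr7:135716460-135716579 on the minus strand for Mki67, chr4:118437344-118437408 on the minus strand for Cdc20 and chr19:37376325-37376380 on the plus strand for Kif11.
Cdk1: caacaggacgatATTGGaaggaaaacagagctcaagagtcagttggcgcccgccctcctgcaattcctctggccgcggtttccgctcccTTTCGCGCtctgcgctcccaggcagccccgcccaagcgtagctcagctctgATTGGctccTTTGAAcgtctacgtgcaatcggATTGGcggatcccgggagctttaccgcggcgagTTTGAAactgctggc
Top2a: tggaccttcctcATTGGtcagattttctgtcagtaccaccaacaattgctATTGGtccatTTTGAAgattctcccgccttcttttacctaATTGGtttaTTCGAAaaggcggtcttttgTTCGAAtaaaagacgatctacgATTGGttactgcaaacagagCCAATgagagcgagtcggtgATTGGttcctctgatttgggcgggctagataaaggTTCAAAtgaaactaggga
Mki67: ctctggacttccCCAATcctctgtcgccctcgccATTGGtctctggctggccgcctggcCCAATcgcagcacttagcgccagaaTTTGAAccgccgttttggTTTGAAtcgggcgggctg
Cdc20: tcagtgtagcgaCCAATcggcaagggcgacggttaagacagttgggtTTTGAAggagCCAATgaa
Kif11: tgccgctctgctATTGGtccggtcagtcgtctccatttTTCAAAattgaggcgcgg

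**Figure D1:**
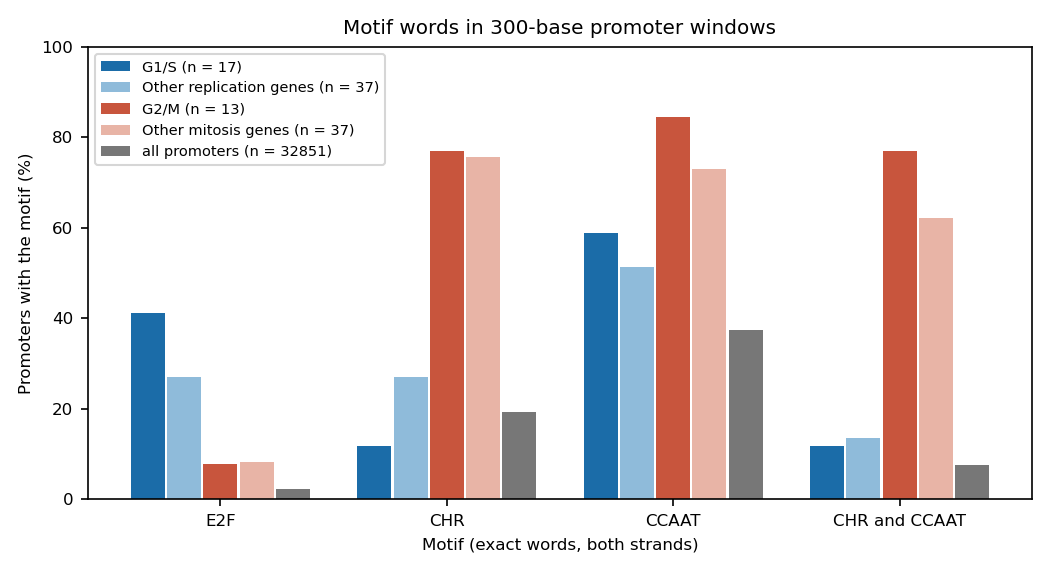
Percentage of promoter windows that hold each motif, for the G1/S members, other replication genes, G2/M members, other mitosis genes and all promoters. The E2F bar is highest for the G1/S members (41.2%), and the CHR bars are highest for the G2/M members (76.9%) and the other mitosis genes (75.7%), against 2.3% and 19.2% of all promoters.

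Polypoid tissue was first compared with inflamed tissue over both arms, 4 mice against 4. G1/S replication genes were higher in polypoid tissue: 8 of 19 rose, none fell, and all 19 had positive differences (median 0.74, range 0.26 to 1.43). Of the 18 G2/M genes 1 rose, none fell, and 16 had positive differences (median 0.44, range -0.28 to 1.19). The median over all genes was -0.02, 47.3% of all genes had positive differences, and 3.97% of the genes tested were called higher. The call is an adjusted p under 0.05 from limma with Benjamini-Hochberg adjustment over all 21301 genes, and p-values measure the spread between mice. Where a bracket after a difference and its SE holds a number alone, that number is this adjusted p.

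**Figure D2:**
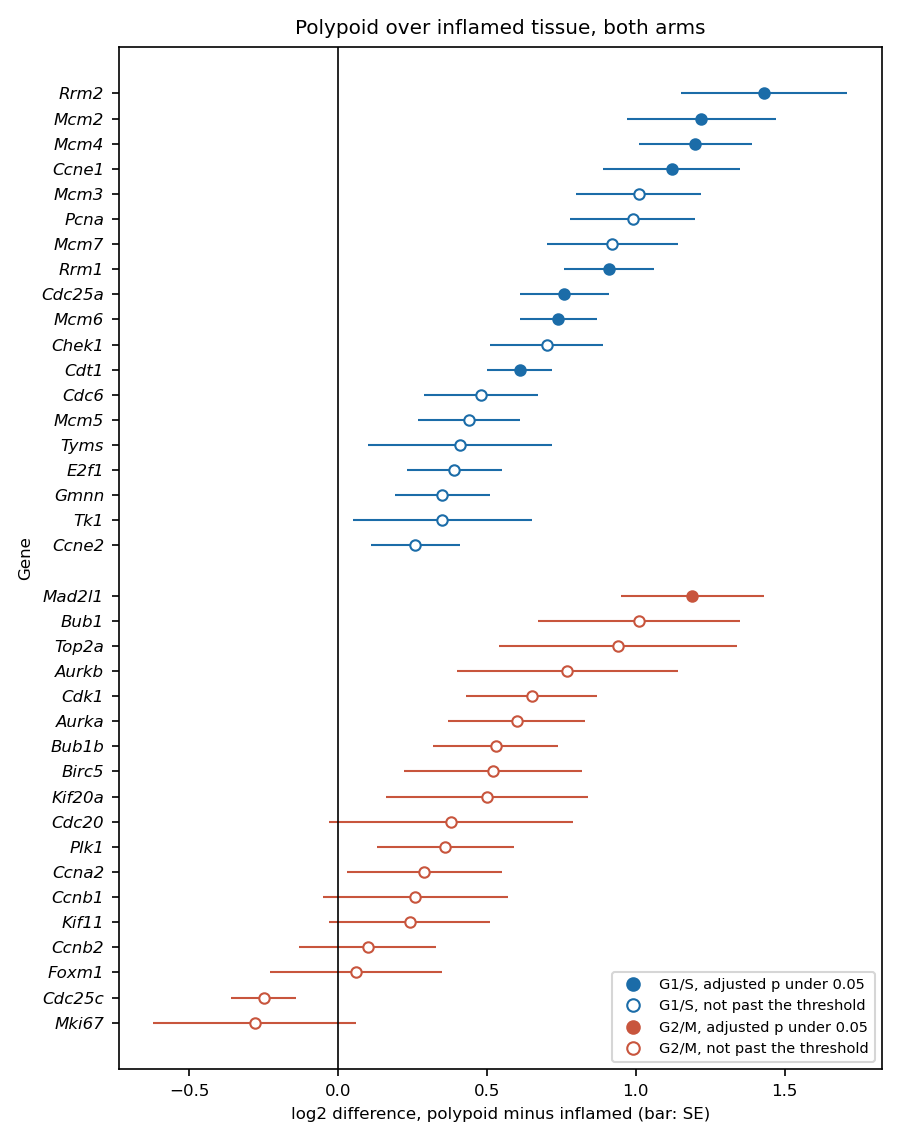
log2 difference of polypoid minus inflamed tissue for each member (x axis, bar: standard error from limma, 8 mice), G1/S above and G2/M below, filled where the adjusted p was under 0.05. The G1/S points all lie right of 0, from 0.26 for Ccne2 to 1.43 for Rrm2, while Cdc25c (-0.25) and Mki67 (-0.28) lie left of it.

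Among the helicase subunits Mcm2, Mcm4 and Mcm6 rose. Mcm2 was at -1.60 and -1.91 in the untreated inflamed mice, -2.45 and -2.08 in the 5-ASA inflamed mice, -1.02 and -0.21 in the untreated polypoid mice and -0.62 and -1.31 in the 5-ASA polypoid mice. Every polypoid mouse lay above every inflamed mouse, and the rise was 1.22 ± 0.25 (SE, n = 4 and 4), or 2.33-fold (limma adjusted p = 0.045). Mcm4 was at -1.54 and -2.23 in the untreated inflamed mice, -2.38 and -1.93 in the 5-ASA inflamed mice, -1.11 and -1.01 in the untreated polypoid mice and -0.63 and -0.52 in the 5-ASA polypoid mice. It rose 2.30-fold (1.2 ± 0.19, limma adjusted p = 0.023), again with no overlap, and 5-ASA inflamed mouse 1 was lowest. Mcm6 was at -1.49 and -1.84 in the untreated inflamed mice, -2.54 and -2.24 in the 5-ASA inflamed mice, -1.32 and -1.20 in the untreated polypoid mice and -1.23 and -1.41 in the 5-ASA polypoid mice. The 4 polypoid mice lay close together above the inflamed mice, and the rise was 1.67-fold (0.74 ± 0.13, limma adjusted p = 0.033). The other 3 subunits had positive differences that did not pass: Mcm3 1.01 ± 0.21, Mcm7 0.92 ± 0.22 and Mcm5 0.44 ± 0.17, with limma adjusted p of 0.051, 0.066 and 0.20. In Mcm3 and Mcm7, too, the tissues did not overlap.

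Of the licensing factors, Cdt1 rose while Cdc6 and the Cdt1 inhibitor Gmnn (geminin) did not pass. Cdt1 was at -1.63 and -1.79 in the untreated inflamed mice, -1.86 and -1.58 in the 5-ASA inflamed mice, -1.30 and -1.19 in the untreated polypoid mice and -1.04 and -0.89 in the 5-ASA polypoid mice. The tissues did not overlap, and the rise was 0.61 ± 0.11 or 1.52-fold (limma adjusted p = 0.034). Cdc6 was at -1.65 and -1.09 in the untreated inflamed mice, -2.16 and -1.76 in the 5-ASA inflamed mice, -1.37 and -0.85 in the untreated polypoid mice and -1.17 and -1.33 in the 5-ASA polypoid mice. Untreated inflamed mouse 2 lay above 3 of the 4 polypoid mice, and the difference was 0.48 ± 0.19 (limma adjusted p = 0.21). Gmnn differed by 0.35 ± 0.16 (0.27).

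Both subunits of ribonucleotide reductase, the enzyme that makes deoxynucleotides, rose. Rrm1, the large subunit, was at -1.31 and -1.16 in the untreated inflamed mice, -2.10 and -1.60 in the 5-ASA inflamed mice, -0.98 and -0.87 in the untreated polypoid mice and -0.16 and -0.52 in the 5-ASA polypoid mice. All polypoid mice were above all inflamed mice, the 5-ASA polypoid mice highest and the 5-ASA inflamed mice lowest, and the rise was 1.88-fold (0.91 ± 0.15, limma adjusted p = 0.028). Rrm2, the small subunit, was at -2.45 and -2.39 in the untreated inflamed mice, -3.23 and -2.02 in the 5-ASA inflamed mice, -1.44 and -1.23 in the untreated polypoid mice and -0.61 and -1.09 in the 5-ASA polypoid mice. It had the largest difference of the 37 members, 1.43 ± 0.28 or 2.69-fold (limma adjusted p = 0.041), without overlap. Pcna, the sliding clamp of the DNA polymerases, was also higher in every polypoid mouse than in any inflamed mouse, at -0.88 to -0.33 against -2.0 to -1.21, but narrowly missed the threshold (0.99 ± 0.21, limma adjusted p = 0.052). The thymidylate genes overlapped between tissues: Tyms (thymidylate synthase) differed by 0.41 ± 0.31 (0.50) and Tk1 (thymidine kinase) by 0.35 ± 0.30 (0.54).

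Of 5 regulators of S phase entry and progress, Ccne1 and Cdc25a rose. Ccne1, cyclin E1, was at -1.61 and -0.68 in the untreated inflamed mice, -1.91 and -1.69 in the 5-ASA inflamed mice, -0.59 and -0.10 in the untreated polypoid mice and -0.37 and -0.34 in the 5-ASA polypoid mice. Untreated inflamed mouse 2 came close to the polypoid mice, and the rise was 2.17-fold (1.12 ± 0.23, limma adjusted p = 0.048). A second Ccne1 probe, well above background on all 15 arrays, differed by 0.09, so the call rests on 1 of 2 probes. Cdc25a, the phosphatase that activates cyclin-dependent kinases at this step, was at -0.17 and 0.20 in the untreated inflamed mice, -0.21 and -0.44 in the 5-ASA inflamed mice, 0.85 and 0.76 in the untreated polypoid mice and 0.64 and 0.19 in the 5-ASA polypoid mice. The lowest polypoid mouse (0.19) and the highest inflamed mouse (0.20) met, and the rise was 1.70-fold (0.76 ± 0.15, limma adjusted p = 0.042), with 0.21 at its other probe. Cyclin E2 (Ccne2, 0.26 ± 0.15, limma adjusted p = 0.36), the transcription factor E2f1 (0.39 ± 0.16, 0.22) and the replication checkpoint kinase Chek1 (0.70 ± 0.19, 0.094) did not pass.

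Of the G2/M genes Mad2l1 rose. It encodes the spindle checkpoint protein Mad2 and was at -1.77 and -1.63 in the untreated inflamed mice, -2.51 and -1.50 in the 5-ASA inflamed mice, -0.87 and -1.14 in the untreated polypoid mice and -0.12 and -0.53 in the 5-ASA polypoid mice. The 4 polypoid mice lay above the 4 inflamed mice, and the rise was 2.28-fold (1.19 ± 0.24, limma adjusted p = 0.046), with 1.1 at its second probe. Bub1, the checkpoint kinase, was at -2.64 and -2.48 in the untreated inflamed mice, -3.47 and -2.70 in the 5-ASA inflamed mice, -1.74 and -2.48 in the untreated polypoid mice and -0.88 and -2.13 in the 5-ASA polypoid mice. Untreated polypoid mouse 2 equalled the highest inflamed mouse, and the difference of 1.01 ± 0.34 did not pass (limma adjusted p = 0.15). Cdk1, the mitotic kinase, was at -1.88 and -1.93 in the untreated inflamed mice, -2.33 and -1.43 in the 5-ASA inflamed mice, -1.20 and -1.51 in the untreated polypoid mice and -0.95 and -1.31 in the 5-ASA polypoid mice. The highest inflamed mouse, 5-ASA inflamed mouse 2, lay inside the polypoid range, the difference was 0.65 ± 0.22 (limma adjusted p = 0.15), and the dimmer second probe differed by 0.

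The mitotic cyclins did not pass: Ccna2 0.29 ± 0.26, Ccnb1 0.26 ± 0.31 and Ccnb2 0.10 ± 0.23 (limma adjusted p = 0.57, 0.67 and 0.84). The other Ccnb1 probes differed by 0.54 and 0.55. The Aurora kinases Aurka (0.60 ± 0.23) and Aurkb (0.77 ± 0.37), the checkpoint kinase Bub1b (0.53 ± 0.21) and the chromosomal passenger protein Birc5 (0.52 ± 0.30) had adjusted p of 0.19, 0.28, 0.19 and 0.36 from limma. Top2a, the topoisomerase that untangles chromosomes, differed by 0.94 ± 0.40 (0.23), with 0.20 at its other kept probe. The kinesins Kif20a and Kif11 differed by 0.50 ± 0.34 (0.44) and 0.24 ± 0.27 (0.66), and Foxm1, a transcription factor for mitotic genes, by 0.06 ± 0.29 (0.93). Mki67, which encodes the proliferation antigen Ki-67, was at 0.01 and -0.02 in the untreated inflamed mice, -1.35 and 0.11 in the 5-ASA inflamed mice, -0.61 and -1.01 in the untreated polypoid mice and -0.71 and -0.03 in the 5-ASA polypoid mice. Apart from 5-ASA inflamed mouse 1, the inflamed mice lay above every polypoid mouse, if narrowly, and the difference was -0.28 ± 0.34 (limma adjusted p = 0.68), with 0.08 at its second probe.

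Plk1, the Polo kinase, was at -0.77 and -0.25 in the untreated inflamed mice, -1.26 and -0.39 in the 5-ASA inflamed mice, -0.48 and -0.83 in the untreated polypoid mice and 0.09 and 0.01 in the 5-ASA polypoid mice. The tissues overlapped and the difference was 0.36 ± 0.23 (limma adjusted p = 0.41). Cdc20, the activator of the anaphase-promoting complex, was at -1.43 and 0.10 in the untreated inflamed mice, -2.63 and -1.61 in the 5-ASA inflamed mice, -1.38 and -0.83 in the untreated polypoid mice and -0.69 and -1.13 in the 5-ASA polypoid mice. Untreated inflamed mouse 2 stood alone at the top and 5-ASA inflamed mouse 1 at the bottom, so the inflamed mice spanned more than the polypoid mice, and the difference was 0.38 ± 0.41 (limma adjusted p = 0.63). Cdc25c, the phosphatase that activates Cdk1, was at 0.30 and 0.70 in the untreated inflamed mice, 0.19 and 0.22 in the 5-ASA inflamed mice, 0.20 and 0.11 in the untreated polypoid mice and 0.03 and 0.06 in the 5-ASA polypoid mice. With Mki67 it was 1 of 2 members with a lower mean in polypoid tissue, with a difference of -0.25 ± 0.11 (limma adjusted p = 0.25).

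Counted without a test, all 4 polypoid mice lay above all 4 inflamed mice for 11 of 19 G1/S members and for 1 of 18 G2/M members, against 8.37% of all genes measured in every mouse. The 11 were Mcm2, Mcm3, Mcm4, Mcm6, Mcm7, Cdt1, Rrm1, Rrm2, Pcna, E2f1 and Ccne1, and the 1 was Mad2l1. No member had all inflamed mice above all polypoid mice.

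**Figure D3:**
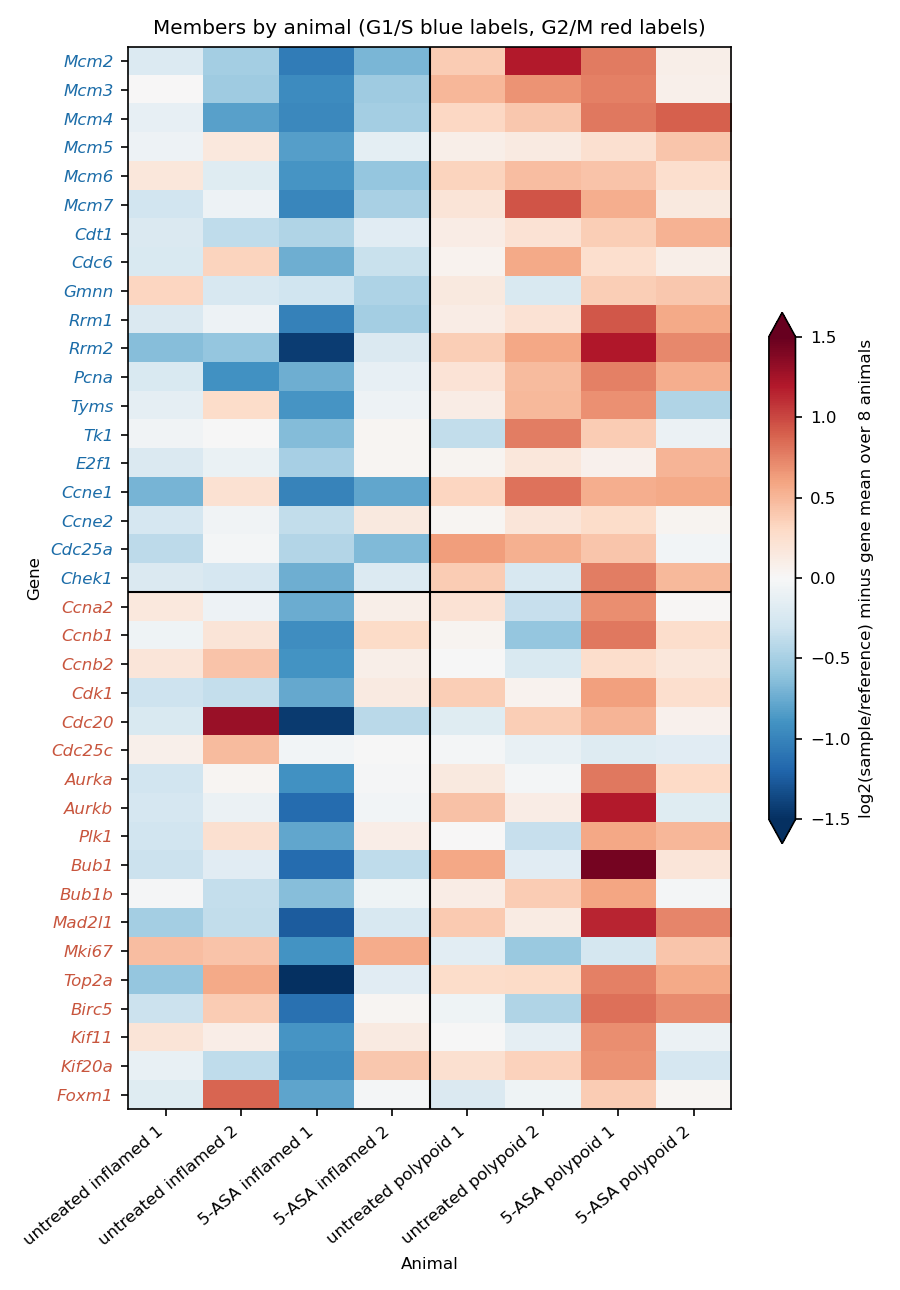
log2(sample/reference) of the 37 members (rows) in the 8 mice (columns), each gene centred on its mean over the mice; red is above and blue below that mean, and values beyond 1.5 are drawn at the end of the scale. The column of 5-ASA inflamed mouse 1 is the lowest for 16 of 19 G1/S and 17 of 18 G2/M members, and in 11 of 19 G1/S rows every polypoid mouse is above every inflamed mouse.

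These calls rested on few mice, and the tissues were not spread evenly over scan sessions. The array headers give 4 scan dates, taken as 4 sessions. Untreated and 5-ASA inflamed mouse 1 were in the first, and both polypoid mice numbered 1 in the second. 5-ASA inflamed mouse 2 was alone in the fourth, and the other 3 mice were in the third. With session as a block (2 residual degrees of freedom) 0 members passed, as did 0 of all genes. At an unadjusted limma p under 0.05 there were 3833 of 21301 genes and 3 of 37 members, a smaller share of the members. Only the third session held both tissues, so the tissue difference in this fit rests on that session. There untreated inflamed mouse 2 was the sole inflamed mouse. The medians in this fit were 0.46 for G1/S (18 of 19 positive) and -0.11 for G2/M (7 of 18 positive). The differences within the third session that follow come from the same mice. Within the third session untreated polypoid mouse 2 exceeded untreated inflamed mouse 2 by a median of 0.58 over the G1/S members (18 of 19 positive), while the G2/M median was -0.28 (5 of 18 positive). 5-ASA polypoid mouse 2 exceeded the same inflamed mouse by medians of 0.60 and 0.08 (15 of 19 and 11 of 18 positive). Leaving out 5-ASA inflamed mouse 1, untreated polypoid mouse 2 or either 5-ASA polypoid mouse left 0 members called, and leaving out any other mouse left 2 or 3. Without 5-ASA inflamed mouse 1 the medians were 0.66 for G1/S and 0.16 for G2/M, and 12 and 3 members had an unadjusted limma p under 0.05, as did 3441 of all genes.

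Markers of other cell types also differed between the tissues. Of all 21301 genes, 1264 were called in either direction, 845 of them (3.97%) higher. Over 6 neutrophil markers the mean, centred on each gene, was -1.17 to -0.80 in the inflamed mice and 0.56 to 1.45 in the polypoid mice, and 3 of 6 rose; Cxcr2 and Retnlg were well above background on 2 of 7 inflamed arrays. Over 8 smooth muscle markers it was -0.22 to 1.95 and -0.99 to -0.39, and 4 of 8 fell. Over 7 B and plasma cell markers it was -0.11 to 1.85 and -1.36 to 0.14, and 1 fell. Of 10 epithelial markers 0 passed (-0.07 to 0.27 and -0.48 to 0.17). At an unadjusted limma p under 0.05, 1 of these 10 was higher and 3 were lower in polypoid tissue. In the 5-ASA arm 9 of the 10 had negative differences (median -0.56), 5 of them at that unadjusted limma p. In the untreated arm 6 were negative and 4 positive (median -0.06). Of the measured fibroblast, endothelial, T cell and macrophage markers (7, 5, 6 and 6), 0 passed in limma, with 3, 0, 2 and 0 at an unadjusted p under 0.05. The part of these cells in the cell cycle differences was not tested.

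The arms were then taken singly, 2 mice against 2; all these comparisons draw on the same 8 mice. In untreated mice 0 members passed, while 0.16% of all genes were called higher; at an unadjusted limma p under 0.05 there were 8 of 19 G1/S members, all higher, and 0 of 18 G2/M members, against 12.6% of all genes in either direction. The 8 were Mcm2, Mcm3, Mcm4, Mcm7, Cdt1, Rrm2, Pcna and Cdc25a, with differences of 0.46 to 1.14. The G1/S median was 0.40 with 18 of 19 positive and the G2/M median was -0.13 with 8 of 18 positive, beside -0.03 for all genes. The sign of the G2/M median turned without untreated inflamed mouse 2 (0.19) and without untreated polypoid mouse 2 (0.10), and the median was -0.22 without mouse 1 of either group. Both untreated polypoid mice lay above both untreated inflamed mice for 13 G1/S and 5 G2/M members (19.4% of all genes), and below them for 0 and 4 (22.4% of all genes).

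In mice given 5-ASA, G1/S genes again held the members that rose. Mcm4 rose 2.98-fold (1.57 ± 0.27, limma adjusted p = 0.041), Mcm6 2.10-fold (1.07 ± 0.19, 0.043) and Rrm1 2.86-fold (1.51 ± 0.22, 0.029), so 3 of 19 G1/S and 0 of 18 G2/M members passed, against 2.04% of all genes called higher. The G1/S median was 1.07 with 19 of 19 positive and the G2/M median was 0.80 with 17 of 18 positive, beside 0.00 for all genes. Both 5-ASA polypoid mice lay above both 5-ASA inflamed mice for 16 G1/S and 11 G2/M members (26.7% of all genes). Among G2/M genes Mad2l1 differed by 1.68 ± 0.34 (limma adjusted p = 0.062) and Bub1 by 1.58 ± 0.48 (0.15). Leaving out any of these 4 mice left 0 members called, and leaving out either untreated polypoid mouse left 1. Without 5-ASA inflamed mouse 1 the G2/M median was 0.33, and without 5-ASA inflamed mouse 2 it was 1.25.

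**Figure D4:**
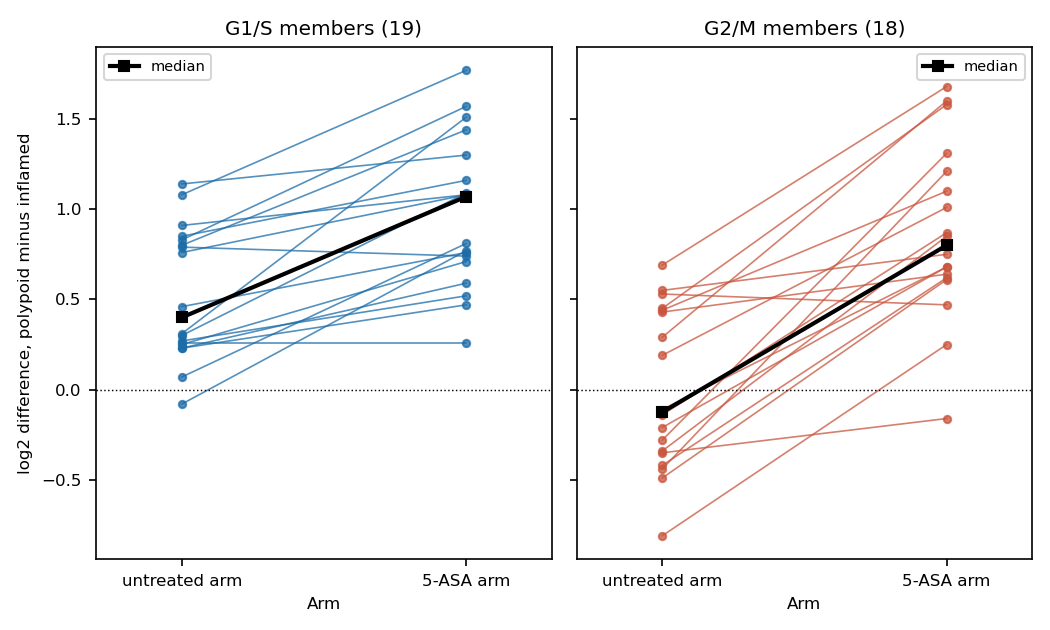
log2 difference of polypoid minus inflamed tissue in the untreated arm and in the 5-ASA arm, 1 line for each G1/S member (left) and G2/M member (right), with the class median in black. The G1/S median goes from 0.40 to 1.07 and the G2/M median from -0.13 to 0.80; each arm has 2 mice per tissue.

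No member passed a comparison of 5-ASA with untreated mice, and neither did any of the 21301 genes (0% called by limma in both tissues together, in polypoid tissue, in inflamed tissue and in the difference of the drug effect between tissues). At an unadjusted limma p under 0.05 there was 1 member over both tissues (Mcm6, -0.39 ± 0.13; 6.38% of all genes), 1 in polypoid tissue (Rrm1, 0.58 ± 0.22; 7.76%) and 3 in inflamed tissue (Mcm6 -0.72 ± 0.19, Rrm1 -0.62 ± 0.22 and Cdc20 -1.45 ± 0.57; 4.38%). The difference between tissues had 4 (Rrm1 1.2 ± 0.30, Mcm6 0.67 ± 0.26, Gmnn 0.85 ± 0.33 and Birc5 1.59 ± 0.59; 5.97%), with limma adjusted p of 0.80 to 0.83. The difference between the arms was therefore not past the threshold for any member. Over all genes its median was 0.03, while it was 0.37 over the G1/S and 1.0 over the G2/M members, with 18 of 19 and 17 of 18 positive. Single mice moved these medians: they were 0.10 and 0.44 without 5-ASA inflamed mouse 1, 0.65 and 1.46 without 5-ASA inflamed mouse 2, 0.65 and 0.84 without untreated polypoid mouse 2, 0.22 and 1.09 without untreated polypoid mouse 1, 0.63 and 1.16 without 5-ASA polypoid mouse 2, and 0.38 and 0.68 without 5-ASA polypoid mouse 1.

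In inflamed tissue 17 of 19 G1/S and 17 of 18 G2/M members had negative differences of 5-ASA from untreated mice, with medians of -0.42 and -0.41. Both 5-ASA inflamed mice lay below both untreated ones for 9 and 4 members (14.6% of all genes). Here too the 2 treated mice differed: without mouse 1 the medians were -0.18 and 0.07, and without mouse 2 they were -0.69 and -0.95. Within the first scan session 5-ASA inflamed mouse 1 was below untreated inflamed mouse 1 for all 37 members (medians -0.62 and -0.83). The 2 arrays of 5-ASA inflamed mouse 1 had 79.5% and 85.9% of probes well above background, beside 80.3% and 87.0% for untreated inflamed mouse 1. Smooth muscle markers averaged -0.22 and 0.23 in the 5-ASA and 1.95 and 0.83 in the untreated inflamed mice, and the part of these cells was not tested.

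In polypoid tissue, 10 of 19 G1/S members had positive differences of 5-ASA from untreated mice (median 0.05), beside 16 of 18 G2/M members (median 0.38), with 0.01 for all genes. The G2/M median was 0.12 without 5-ASA polypoid mouse 1 and 0.63 without mouse 2, and the G1/S median ran from -0.03 (without untreated polypoid mouse 1) over 0.01 (without 5-ASA polypoid mouse 1) and 0.18 (without 5-ASA polypoid mouse 2) to 0.24 (without untreated polypoid mouse 2). Both 5-ASA polypoid mice lay above both untreated ones for 8 members of each class (21.3% of all genes). B and plasma cell markers averaged -1.29 and -1.36 in the 5-ASA and 0.09 and 0.14 in the untreated polypoid mice, with negative differences for 7 of 7. Epithelial markers averaged -0.22 and -0.48 against 0.02 and 0.17, with negative differences for 10 of 10, 3 of them at an unadjusted limma p under 0.05. The part of these cells was not tested. Within the second session the medians were 0.27 for G1/S and 0.58 for G2/M, and within the third -0.15 and 0.31. Mcm5, Gmnn, Rrm1 and Ccnb2 lay below the untreated mice in both 5-ASA inflamed mice and above them in both 5-ASA polypoid mice, a pattern found in 3.11% of all genes.

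Set against each other mouse by mouse, the class means differed most in untreated polypoid mouse 2. Centred on each gene's mean over the 8 mice, the G1/S mean was -0.19 and -0.20 in untreated inflamed, -0.78 and -0.33 in 5-ASA inflamed, 0.21 and 0.44 in untreated polypoid and 0.56 and 0.30 in 5-ASA polypoid mice. It was negative in all 4 inflamed and positive in all 4 polypoid mice. The G2/M mean was -0.13 and 0.18, -0.94 and 0.03, 0.12 and -0.08, and 0.64 and 0.19 in the same order. Its sign did not follow the tissue, since untreated inflamed mouse 2 and 5-ASA inflamed mouse 2 were above 0 and untreated polypoid mouse 2 below. G1/S minus G2/M was -0.06 and -0.38 in untreated inflamed mice (mean -0.22 ± 0.22 SD, n = 2), 0.16 and -0.35 in 5-ASA inflamed mice (-0.10 ± 0.37), 0.09 and 0.51 in untreated polypoid mice (0.30 ± 0.30) and -0.08 and 0.11 in 5-ASA polypoid mice (0.01 ± 0.13). The untreated polypoid and untreated inflamed mice did not overlap in this gap, while every other pair of groups did, and no test was made of it, since the members were chosen with results known.

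**Figure D5:**
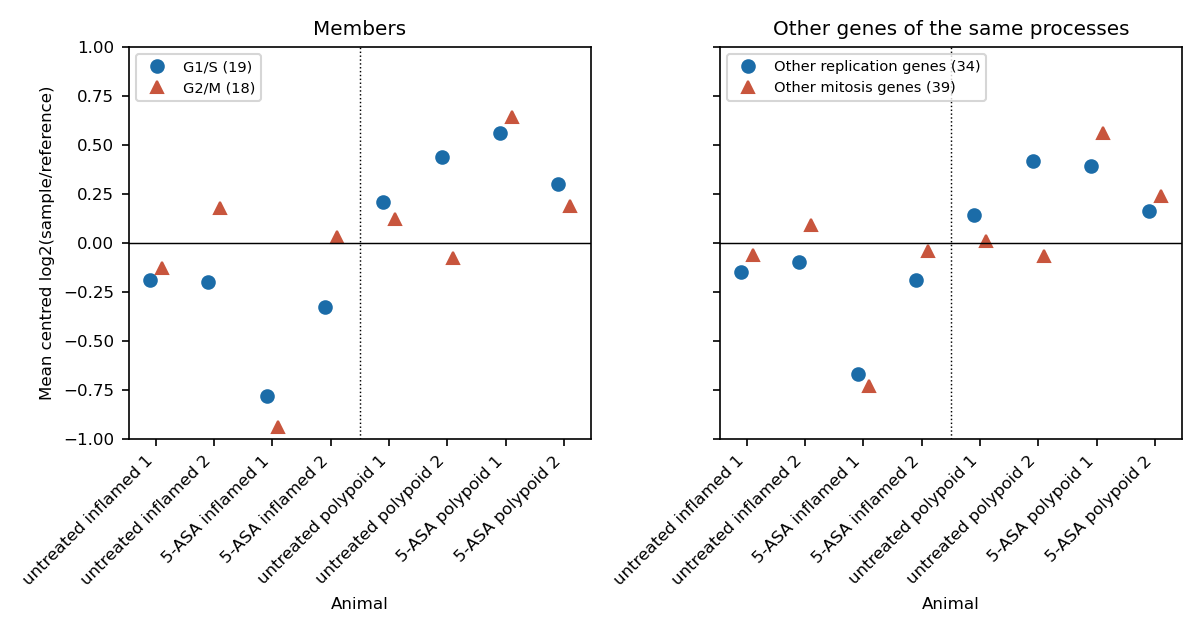
Mean centred log2(sample/reference) in each mouse for the G1/S and G2/M members (left) and for other replication and mitosis genes (right), inflamed mice left and polypoid mice right of the dotted line. The G1/S points are below 0 in the 4 inflamed mice and above 0 in the 4 polypoid mice, while the G2/M points run from -0.94 to 0.64 without that order; 5-ASA inflamed mouse 1 is lowest and 5-ASA polypoid mouse 1 highest for both classes.

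The highest mouse also differed by class. For G1/S members it was 5-ASA polypoid mouse 1 for 7, untreated polypoid mouse 2 for 6, 5-ASA polypoid mouse 2 for 5 and untreated polypoid mouse 1 for 1. For G2/M members it was 5-ASA polypoid mouse 1 for 13, untreated inflamed mouse 2 for 4 and 5-ASA inflamed mouse 2 for 1.

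Other genes of the 2 processes were read from lists that hold none of the members. Of 36 other replication genes 34 were measured and 4 rose from inflamed to polypoid tissue, with a median of 0.62 and 31 positive, beside 3.97% of all genes called higher and 47.3% positive. They included Dut, which removes dUTP (0.93 ± 0.17, limma adjusted p = 0.033), Gins1 of the helicase complex (1.31 ± 0.24, 0.035) and Pola1, the catalytic subunit of DNA polymerase alpha (0.91 ± 0.17, 0.039). Of 40 other mitosis genes 39 were measured and 1 rose, the chromosome-associated kinesin Kif4 (0.70 ± 0.14, limma adjusted p = 0.039), with a median of 0.33 and 36 positive. That is 1 call in 39, no more than the 3.97% over all genes. In the untreated arm the medians were 0.38 and -0.02, and in the 5-ASA arm 0.68 and 0.76. Replication minus mitosis was 0.12 and 0.49 in the untreated polypoid and -0.09 and -0.19 in the untreated inflamed mice (0.31 ± 0.26 and -0.14 ± 0.07 SD, n = 2), and -0.17 and -0.08 in the 5-ASA polypoid mice. These genes come from the same mice and arrays as the members.

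Upstream of S phase, 6 of 29 measured G1 regulators rose and 0 fell (median 0.21, 18 positive), beside 3.97% of all genes called higher and 47.3% positive. Ccnd1, cyclin D1, rose by 1.25 ± 0.17 (limma adjusted p = 0.018), its kinase partners Cdk4 and Cdk6 by 1.26 ± 0.21 (0.029) and 1.45 ± 0.24 (0.028), and the transcription factor Myc by 1.89 ± 0.29 (0.022). E2f7, a repressor of E2F targets, rose by 1.07 ± 0.13 (0.013), and Cdkn1c, which encodes the kinase inhibitor p57, had the largest rise of the list, 2.30 ± 0.31 (0.016). Cdk4, Cdk6, Myc and the other CDK inhibitors below were named after their values were seen. None of these other inhibitors passed. Cdkn1a differed by 0.04 ± 0.26 (limma adjusted p = 0.95), Cdkn1b by -0.34 ± 0.27 (0.51) and Cdkn2a by 0.70 ± 0.20 (0.098). Cdkn2b differed by -0.57 ± 0.26 (0.26), Cdkn2c by -0.19 ± 0.12 (0.41) and Cdkn2d by -0.07 ± 0.11 (0.74).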

How the data were processed

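Laser-captured colon of 8 mice was measured on 15 two-colour Agilent arrays of 43790 spots (2256 controls, 41174 probes). Per the file headers, Agilent Feature Extraction 9.1.1.1 gave each spot's intensity and local background, processed intensity signals and a log10 ratio of red over green. The authors' deposited value table holds log2 ratios of sample over reference in which the dye swaps had been turned. How it was corrected and normalised is not given in the sources used here. The table's columns correlated with the values computed here at 0.9959 to 0.9995, and their medians were -0.0121 to 0.0308.

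Intensities were background-corrected (normexp, offset 50) and loess-normalised within arrays with control spots at weight 0 (limma 3.58.1 and statmod 1.5.0, under R 4.3.3); the offset shrinks ratios of dim probes. Ratios were turned to sample over reference, and a fit of animal plus dye gave 1 value per mouse. For 5-ASA inflamed mouse 2, with 1 array, the dye effect came from the other mice. Probes well above background in the sample channel on every array of at least 1 group were kept (30166), and the brightest probe stood for a gene, which left 21301 genes. Loess centres each array, so a shift shared by all genes would not be seen, and 2 rounds of amplification can change ratios of single genes. Probes were named through their accession by the RefSeq table of GRCm38.p6 (22864), through the array's gene name (10230) or kept the array's name (8080).

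limma compared group means over 8 mice (4 residual and 2.14 prior degrees of freedom), with Benjamini-Hochberg adjustment and a threshold of 0.05, in 7 comparisons. The fit was also run on simulated data with independent noise and no scan session effect. That run cannot show how the fit does where tissue and session are mixed. All mice are separate animals. The members and lists were chosen with earlier results of these data known. Values in every mouse are given for members called in any comparison and for the 3 members of each class with the smallest p in the tissue and in the drug comparison; Mki67 was added. From each further list, up to 3 genes with the smallest p in the tissue comparison were named by rule; other G1 regulators were added after their values were seen. Background correction, normalization, dye, dim probes, probe choice, blocks, the deposited table and leaving out each mouse were varied.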

Additional observations from a re-analysis of the deposited data

How the results depend on the processing

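The number of members called changed with the signal processing, with the scan session block and with the mice included. Over both arms 9 of the 37 members were called. The count was 5 without background correction, 4 in the deposited value table and 5 without the filter on dim probes. It was 6 with scan session as a random block and 0 with it as a fixed block. It fell with any 1 mouse left out, as given above. Mcm6, called over both arms and in the 5-ASA arm, had no estimate from the deposited value table. In the 5-ASA arm 3 members were called, against 7 with the scanner's processed signals, 2 without background correction, 1 in the deposited table and 0 to 4 with 1 mouse left out. The fixed session block put the medians over both arms at 0.46 (G1/S) and -0.11 (G2/M). They rest on the only session with both tissues, where untreated inflamed mouse 2 was the sole inflamed mouse. The untreated G1/S median was 0.61 over the 16 members well above background on every array, and the 5-ASA arm G1/S median was 0.80 with the mean of a gene's probes. Leaving out 1 mouse gave G1/S and G2/M medians of 0.84 to 1.22 and 0.33 to 1.25 in the 5-ASA arm, and -0.69 to -0.18 and -0.95 to 0.07 for 5-ASA in inflamed tissue; the cause was not tested. Mcm4 and Rrm1 passed under 11 of 12 settings that kept all mice, Mcm2 and Ccne1 under 6. The 12 include Aquantile scaling, which leaves ratios as they are, so every called member was bound to pass it. They also include quantile scaling over all channels, which was chosen after seeing the data. With the replicate block 7 members passed (7 G1/S, 0 G2/M), Mcm2 and Mad2l1 being lost at limma adjusted p of 0.053 and 0.051, and 1791 genes in place of 1264. Same-numbered mice of different groups deviated with correlations of 0.03 to 0.36, all positive but near 0 in some pairs of groups. The labels name no shared litter or day, so the mice were taken to share only a number; each number also falls in its own scan sessions, so number and session cannot be told apart.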

Other observations

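Several members have more than 1 probe kept, and the probes of some gave unequal differences between polypoid and inflamed tissue. Mcm3, a helicase subunit, differed by 1.01 at the probe used and by 0.48 at its other probe. Top2a differed by 0.94 and 0.20, and Tyms by 0.41, 0.38 and -0.14. Ccnb1, cyclin B1, differed by less at the probe used (0.26) than at its others (0.54 and 0.55). The pairs of Mad2l1 (1.19 and 1.1), Kif20a (0.50 and 0.54), Chek1 (0.70 and 0.60) and Cdc6 (0.48 and 0.35) were close.

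Among the regulators of E2F targets, E2f7 was at -1.24 and -1.08 in the untreated inflamed, -1.84 and -1.43 in the 5-ASA inflamed, -0.72 and -0.51 in the untreated polypoid and -0.03 and -0.05 in the 5-ASA polypoid mice. The 4 groups did not overlap, and how many of all genes show this was not counted. The 5-ASA mice lay below the untreated mice in inflamed tissue and above them in polypoid tissue, a pattern found in 3.11% of all genes. E2f8, a relative of E2f7, was at -0.48 and 0.27, -1.38 and -0.59, -0.82 and -0.93, and 0.09 and -0.06 in the same order of groups. It differed between tissues by 0.12 ± 0.24 (SE, limma adjusted p = 0.81). E2f7 and E2f8 were set side by side after their values were seen.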
